A study of Homo sapiens with 2 samples.

Results

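DNAJ genes encode the J-domain co-chaperones, also called HSP40 proteins, and their RNA levels were compared between A549 cells stably transduced with ATOH8 and A549 cells stably transduced with the retroviral vector alone. Members were all genes whose symbol in the deposited tables was DNAJA, DNAJB or DNAJC followed by a number and at most 1 letter. The symbols gave 44 members listed in at least 1 library, 4 of class DNAJA, 12 of class DNAJB and 28 of class DNAJC, of 18786 gene symbols with a value in both libraries. A549 is an established human lung adenocarcinoma line, and ATOH8 is a transcription factor of the basic helix-loop-helix family. Both cultures were grown in the same serum-containing medium, and 1 RNA sequencing library was made from each. Whether either transduced culture was a clone or a mixed population is not given in the sources used here. With 1 library per group there is no replicate error, so differences are between these libraries and no p-value is given.

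A J protein carries a J domain, which stimulates the ATPase of an HSP70 chaperone and so locks the HSP70 onto a client protein. HSP70 performs the folding work, J proteins choose the client and the site, and nucleotide exchange factors reset the cycle. Class A proteins keep the layout of bacterial DnaJ, with a glycine- and phenylalanine-rich stretch and a zinc-binding region. Class B proteins keep the J domain and the glycine- and phenylalanine-rich stretch, and class C proteins share the J domain alone and are otherwise diverse. Several cytosolic members are induced by heat shock through HSF1, and several members of the endoplasmic reticulum are induced by misfolded protein there.

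The transduced gene stood where the labels place it, with ATOH8 at 182 FPKM in the ATOH8 library and 0.786 FPKM in the vector library. FPKM, fragments per kilobase of transcript scaled to the library's mapped fragments, accounts for gene length, so levels of different genes can be set beside each other. The ATOH8 file listed 20870 genes and the vector file 20966. Read depth is unknown, and counting error could not be set beside the values. Epithelial markers were present in both libraries: 6 of them summed to 5840.2 FPKM in the ATOH8 library and 5849.4 FPKM in the vector library, mostly keratins, although KRT19 was under 1 FPKM in both. Single markers in that sum differed, with CDH1 at 54.1 FPKM in the ATOH8 library and 15.4 FPKM in the vector library, and KRT7 at 1470.0 and 965 FPKM. Fibroblast markers summed to 0.726 and 0.748 FPKM in the ATOH8 and vector libraries. Of 4 leukocyte markers, CD14 stood at 9.14 FPKM in the ATOH8 library and 1.12 FPKM in the vector library, and PTPRC, the pan-leukocyte marker, was at 0.0111 FPKM in the ATOH8 library and unlisted in the vector library. Endothelial markers, unlisted in the vector library, summed to 0.0694 FPKM in the ATOH8 library.

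Promoter windows of 300 bases, 250 before and 50 after the RefSeq transcript start (GRCh38.p14), were found for 39 of the 44 members. The heat shock element core GAANNTTC, which reads the same on both strands, lay in the windows of DNAJA1, DNAJB6 and DNAJB7. That is 7.69% of the members' windows against 6.87% of all 27305 windows. Of the 9005 windows of genes with a mean of at least 1 FPKM, 4.49% held it. The longer element, that core followed after any pair of bases by a further GAA, was read on both strands and contains the core. It lay in DNAJA1 and DNAJB6, against 0.487% of all windows. Those elements are in capitals in the 2 stretches below, from chr9:33025233-33025292 and chr7:157336844-157336903, both on the plus strand.
DNAJA1: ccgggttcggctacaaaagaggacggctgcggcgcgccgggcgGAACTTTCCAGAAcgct
DNAJB6: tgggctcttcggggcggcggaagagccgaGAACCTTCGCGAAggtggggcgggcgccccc

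The CCAAT box, the letters CCAAT on either strand, was found in 16 of the 39 windows (41.0%). Its share was 35.7% of all windows and 37.0% of those of genes with a mean of at least 1 FPKM. The box was in 2 of 3 windows of members at least 2-fold higher in the ATOH8 library, 2 of 8 of those at least 2-fold lower and 9 of 22 of those within 2-fold. The higher members that held it were DNAJC12 and DNAJC4, shown in capitals from chr10:67838189-67838248 on the minus strand and chr11:64230352-64230411 on the plus strand.
DNAJC12: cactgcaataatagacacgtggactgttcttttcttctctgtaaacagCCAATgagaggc
DNAJC4: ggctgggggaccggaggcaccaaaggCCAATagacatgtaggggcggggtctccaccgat

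The endoplasmic reticulum stress element, read on both strands, was in 0 of the 39 windows and in 0.0806% of all windows. The cyclic AMP response element core TGACGTCA, its own reverse complement, was in DNAJC27 alone (2.56% of the members' windows), against 1.98% of all windows. Among windows of genes with a mean of at least 1 FPKM, the shares of these 2 elements were 0.155% and 3.42%. These matches describe letters in 1 window per gene and say nothing of which factor bound there.

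In all, the DNAJ genes took up less of the ATOH8 library. They summed to 473 FPKM in the ATOH8 library and 878 FPKM in the vector library, a ratio of 0.539. In bulk RNA, fewer cells that express a gene and less of its RNA per cell cannot be told apart. As a share of the summed FPKM of all nuclear genes listed in both libraries, that was 0.124% of the ATOH8 library and 0.195% of the vector library. DNAJA1 alone made up 9.11% of the DNAJ sum of the ATOH8 library and 21.1% of that of the vector library, and the ratio without it was 0.621. Class DNAJA summed to 98.6 FPKM in the ATOH8 library and 263 FPKM in the vector library. Class DNAJB summed to 159.5 and 244 FPKM, and class DNAJC to 215 and 371 FPKM, in the ATOH8 and vector libraries. The family's ratio was thus lowest in class DNAJA (0.375), where 1 gene carried it, then DNAJC (0.579) and DNAJB (0.653).

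**Figure D1:**
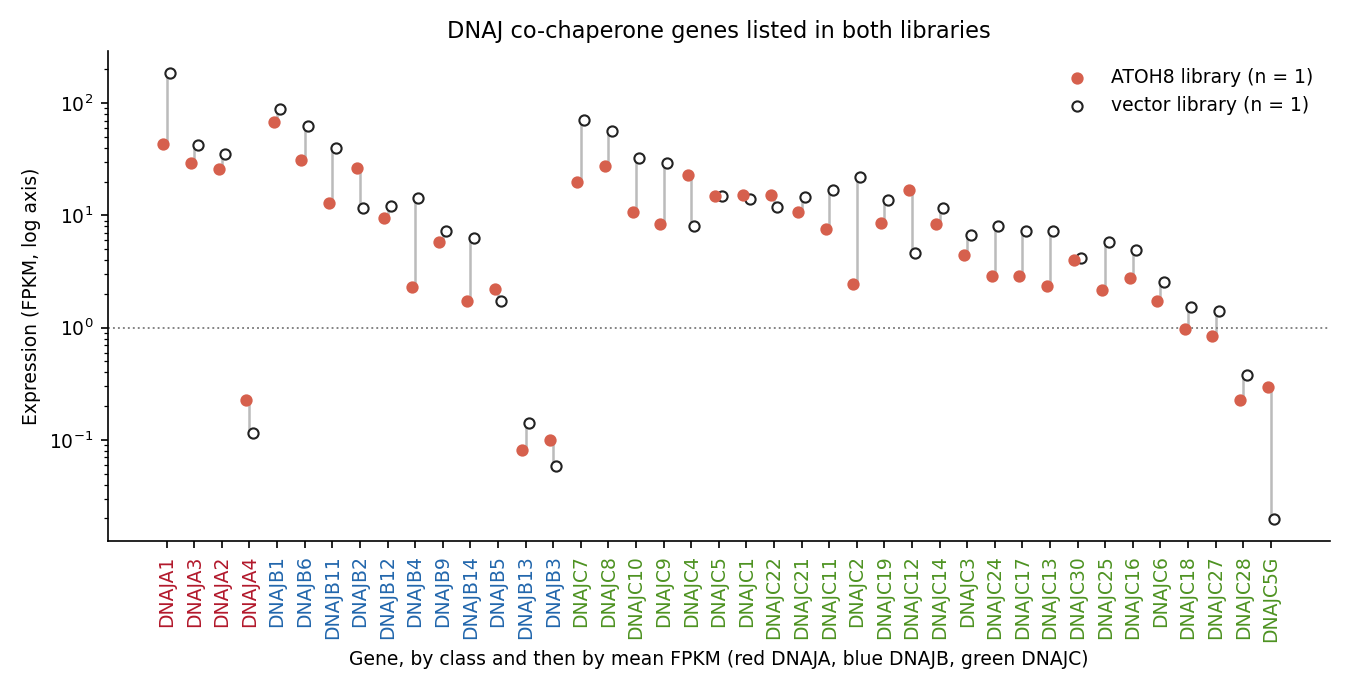
Level of the 41 DNAJ genes listed in both libraries, in FPKM on a log axis, with the ATOH8 library as filled points and the vector library as open points (1 library each). DNAJA1 led the vector library at 185 FPKM and DNAJB1 led the ATOH8 library at 67.4 FPKM; 5 genes lay under the dotted line at 1 FPKM in both.

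The order of the members by level differed between the libraries. In the ATOH8 library the highest were DNAJB1 (67.4 FPKM), DNAJA1 (43.1 FPKM) and DNAJB6 (31.0 FPKM). In the vector library they were DNAJA1 (185 FPKM), DNAJB1 (88.9 FPKM) and DNAJC7 (71.0 FPKM). DNAJC7 was in place 9 in the ATOH8 library and place 3 in the vector library, whereas DNAJB2 was in place 6 and place 21, and DNAJC12 in place 10 and place 31, in the ATOH8 and vector libraries. With 1 library a group, it cannot be said which neighbours in either order differ beyond their spread.

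At the low end, 8 members gave no usable fold. DNAJA4, DNAJB3, DNAJB13, DNAJC5G and DNAJC28 were listed in both libraries at a mean between 0.0787 and 0.303 FPKM. DNAJB7 and DNAJC5B were listed in the vector library alone and DNAJC15 in the ATOH8 library alone, each at 0.127 FPKM or less. The tables list no gene at 0, so absence from a table cannot be read as no expression. The remaining 36 members had a mean of at least 1 FPKM. DNAJC18 and DNAJC27 reached it through the vector library, being under 1 FPKM in the ATOH8 library.

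Folds are log2(FPKM + 1) of the ATOH8 library minus that of the vector library, relative to the median gene, since the median gene with a mean of at least 5 FPKM stood at -0.36 as deposited. A pseudocount of 1 understates the difference of low genes. In the ATOH8 library, 8 of the 36 members were lower by 2-fold or more (22.2%), beside 9.46% of the 12342 genes tested. At least 2-fold higher were 3 members (8.33%), beside 12.8% of the genes tested. The median log2 fold of the members was -0.14 and that of all genes tested was 0.06. Below the all-gene median lay 27 of the 36 members, and 22 of them after the GC correction described below. With the FPKM as deposited, 14 members were at least 2-fold lower and 3 higher, beside 19.0% and 6.24% of the genes tested.

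The class medians were close to each other. The 3 DNAJA members had a median log2 fold of -0.15, with 1 of them at least 2-fold lower and 0 higher. The 9 DNAJB members had a median of -0.04, with 3 lower and 1 higher. The 24 DNAJC members had a median of -0.20, with 4 lower and 2 higher. The lower shares were thus 33.3%, 33.3% and 16.7% in DNAJA, DNAJB and DNAJC, beside 9.46% of the genes tested. The higher shares were 0%, 11.1% and 8.33%, beside 12.8% of the genes tested. Within each class the spread was wider than the gaps between the medians, from -1.72 to -0.06 in DNAJA, from -1.86 to 1.48 in DNAJB and from -2.36 to 2.03 in DNAJC. After the GC correction described below, the order of the class medians changed to -0.33 for DNAJA, -0.26 for DNAJB and -0.04 for DNAJC. The lower members were then 1 of DNAJA, 0 of DNAJB and 5 of DNAJC, beside 4.74% of the genes tested. The higher members were then 0, 1 and 2, beside 9.86% of the genes tested.

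**Figure D2:**
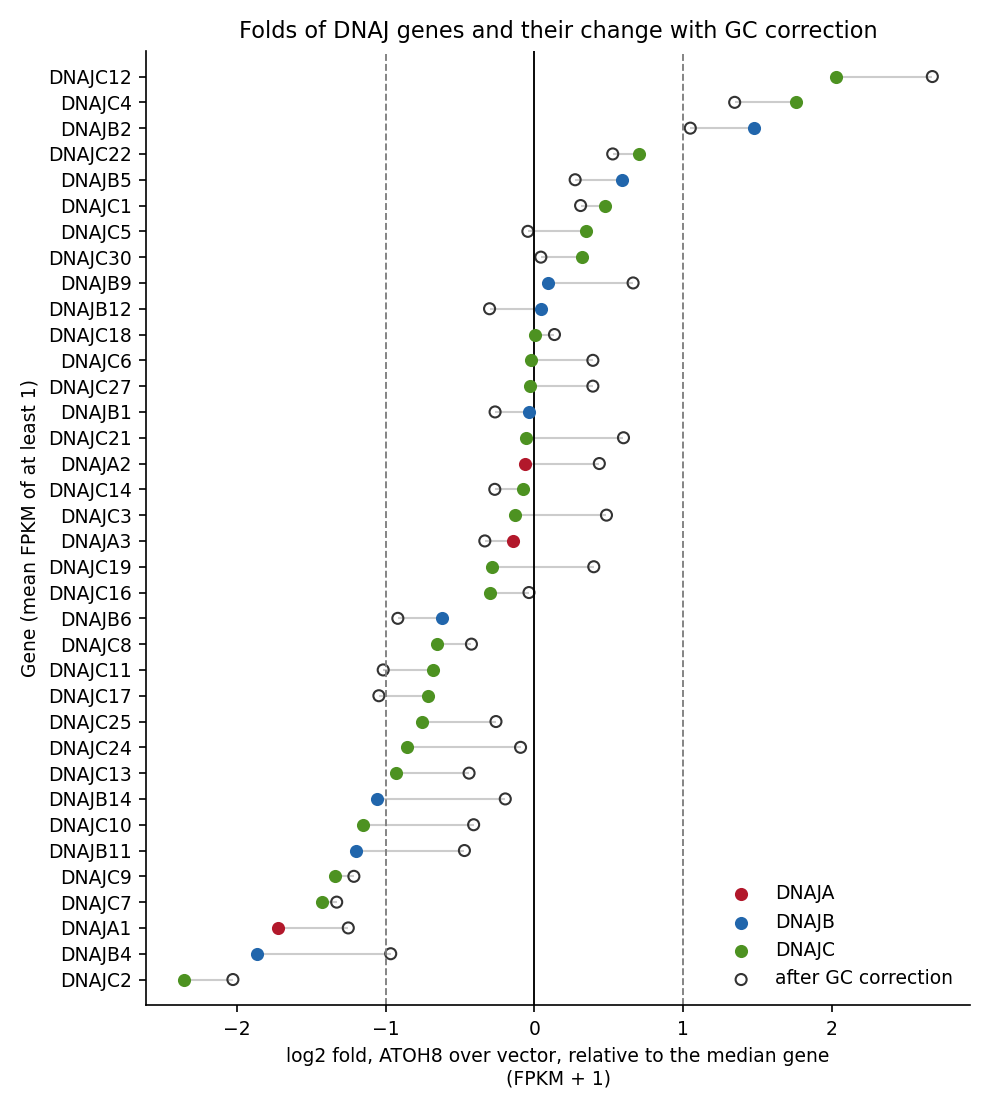
Log2 fold of the 36 members with a mean of at least 1 FPKM, ATOH8 over vector, relative to the median gene, with filled points coloured by class and open points after correction for transcript GC content. Dashed lines mark 2-fold; 8 filled points lie at or beyond the lower line and 3 at or beyond the upper, while 6 and 3 open points do so.

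Among the cytosolic and nuclear partners of HSP70, 8 members were tested, 3 of them at least 2-fold lower and 1 higher. These were 37.5% and 12.5%, beside 9.46% and 12.8% of the genes tested. DNAJA1 (ENSG00000086061, chromosome 9, 33025211 to 33039907, plus strand, GRCh38), an abundant class A partner of the constitutive HSP70 in refolding, was at 43.1 FPKM in the ATOH8 library and 185 FPKM in the vector library, a log2 fold of -1.72. It was the only DNAJA member past 2-fold. DNAJA2, its close cytosolic relative, was at 25.8 FPKM in the ATOH8 library and 35.0 FPKM in the vector library (-0.06). By level, DNAJA1 exceeded DNAJA2 by 1.67 times in the ATOH8 library and by 5.30 times in the vector library.

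The class B partners in the cytosol differed in their folds. DNAJB4 (ENSG00000162616, chromosome 1, 77979175 to 78017964, plus strand), a stress-inducible relative of DNAJB1, was at 2.28 FPKM in the ATOH8 library and 14.3 FPKM in the vector library, a log2 fold of -1.86. DNAJB1, the canonical heat-inducible HSP40, was at 67.4 FPKM in the ATOH8 library and 88.9 FPKM in the vector library, on the median gene at -0.04. DNAJB5, the third of this group, was low and stood at 2.21 FPKM in the ATOH8 library and 1.73 FPKM in the vector library (0.59). Thus DNAJB1 exceeded DNAJB4 by 29.5 times in the ATOH8 library and by 6.21 times in the vector library. After the GC correction described below, DNAJB4 came to -0.97, within 2-fold, and its gap to DNAJB1 on the log2 scale was -0.70, against -1.83 without the correction.

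DNAJB2 and DNAJB6, which handle aggregation-prone clients, also stood apart from each other. DNAJB2 (ENSG00000135924, chromosome 2, 219279267 to 219286900, plus strand), which carries ubiquitin-interacting motifs and passes clients to the proteasome, was at 26.5 FPKM in the ATOH8 library and 11.7 FPKM in the vector library, a log2 fold of 1.48. DNAJB6, a suppressor of polyglutamine aggregation, was at 31.0 FPKM in the ATOH8 library and 61.9 FPKM in the vector library (-0.62). The 2 were therefore close in level in the ATOH8 library, where DNAJB6 was 1.17 times DNAJB2, and 5.32 times apart in the vector library. DNAJC7 (ENSG00000168259, chromosome 17, 41976433 to 42021376, minus strand), whose tetratricopeptide repeats bind both HSP70 and HSP90, was at 19.9 FPKM in the ATOH8 library and 71.0 FPKM in the vector library, a log2 fold of -1.43.

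Of the 10 members of the endoplasmic reticulum, 3 lay past 2-fold on the lower side and 0 on the higher side, and their median log2 fold was -0.21. For all genes tested, the lower and higher shares were 9.46% and 12.8%. DNAJB11 (ENSG00000090520, chromosome 3, 186567403 to 186585800, plus strand), a luminal partner of the HSP70 BiP, was at 12.9 FPKM in the ATOH8 library and 40.0 FPKM in the vector library (-1.20). DNAJC10 (ENSG00000077232, chromosome 2, 182716041 to 182794464, plus strand), a disulfide reductase that acts in degradation of misfolded proteins, was at 10.6 FPKM in the ATOH8 library and 32.2 FPKM in the vector library (-1.15). The third was DNAJB14 (ENSG00000164031, chromosome 4, 99896248 to 99946726, minus strand), a membrane protein of the same degradation route, at 1.73 FPKM in the ATOH8 library and 6.27 FPKM in the vector library (-1.06).

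The remaining members of the endoplasmic reticulum lay within 2-fold. DNAJB12, the closest relative of DNAJB14, was at 9.51 FPKM in the ATOH8 library and 12.0 FPKM in the vector library (0.05). The stress-induced DNAJB9 was at 5.82 FPKM in the ATOH8 library and 7.20 FPKM in the vector library (0.09). DNAJC3, also stress-induced and an inhibitor of the kinase PERK in some settings, was at 4.45 FPKM in the ATOH8 library and 6.62 FPKM in the vector library (-0.13). DNAJC1, DNAJC16, DNAJC18 and DNAJC25 had log2 folds of 0.48, -0.29, 0.002 and -0.76. All 10 were within 2-fold after the GC correction, from -0.47 to 0.66.

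Of 5 members of the nucleus, RNA handling and the ribosome, all lay below the median gene, with a median log2 fold of -0.71. At least 2-fold lower were 2 of them (40%), beside 9.46% of the genes tested. After the GC correction described below, 3 of the 5 were at least 2-fold lower, beside 4.74% of the genes tested. DNAJC21 then lay above the median gene, at 0.60. DNAJC2 (ENSG00000105821, chromosome 7, 103312474 to 103344873, minus strand), which sits on the ribosome beside nascent chains and also binds chromatin, was at 2.47 FPKM in the ATOH8 library and 21.7 FPKM in the vector library. Its log2 fold of -2.36 was the lowest of the 36 members tested. DNAJC9 (ENSG00000213551, chromosome 10, 73183362 to 73248862, minus strand), a chaperone of histones H3 and H4, was at 8.39 FPKM in the ATOH8 library and 29.5 FPKM in the vector library (-1.34).

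DNAJC8, found in the spliceosome, was at 27.4 FPKM in the ATOH8 library and 56.2 FPKM in the vector library (-0.65). DNAJC17, also linked to splicing, was at 2.90 FPKM in the ATOH8 library and 7.19 FPKM in the vector library (-0.71). DNAJC21, a factor of large ribosomal subunit maturation, was at 10.7 FPKM in the ATOH8 library and 14.6 FPKM in the vector library (-0.05). Both splicing-linked genes were thus closer to the median gene than DNAJC2 and DNAJC9.

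The mitochondrial and vesicle members held no gene past 2-fold, where 9.46% of the genes tested were lower and 12.8% higher. The 4 tested mitochondrial members had a median of -0.21, from DNAJC11 at -0.68 to DNAJC30 at 0.32. After the GC correction described below, DNAJC11 (-1.02) was at least 2-fold lower, as 1 of these 4, beside 4.74% of the genes tested. The vesicle and membrane members past 2-fold were then still 0 of 5. DNAJA3, the mitochondrial class A protein, was at 29.4 FPKM in the ATOH8 library and 42.2 FPKM in the vector library (-0.15), and DNAJC19, of the inner membrane import motor, at 8.52 and 13.8 FPKM in the ATOH8 and vector libraries (-0.28). The 5 vesicle and membrane members had a median of -0.03. DNAJC13, an endosomal protein that works in sorting, was the lowest of them at 2.37 FPKM in the ATOH8 library and 7.24 FPKM in the vector library, and its -0.93 was the value nearest the 2-fold limit among those short of it, with DNAJB14 (-1.06) the nearest past it. DNAJC5, the cysteine string protein of secretory vesicles, was at 14.8 FPKM in the ATOH8 library and 14.9 FPKM in the vector library (0.35), and DNAJC6, the clathrin-uncoating auxilin, at 1.72 and 2.55 FPKM (-0.02).

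The other 2 members at least 2-fold higher belonged to none of these role lists. DNAJC12 (ENSG00000108176, chromosome 10, 67796665 to 67838166, minus strand), a co-chaperone of the aromatic amino acid hydroxylases, was at 16.9 FPKM in the ATOH8 library and 4.61 FPKM in the vector library. Its log2 fold of 2.03 was the highest of the 36 members tested. DNAJC4 (ENSG00000110011, chromosome 11, 64230278 to 64234286, plus strand) was at 22.9 FPKM in the ATOH8 library and 8.05 FPKM in the vector library (1.76). DNAJC22 was the next highest, at 15.3 FPKM in the ATOH8 library and 11.8 FPKM in the vector library (0.71), and DNAJC24, of diphthamide synthesis, was at 2.88 and 8.00 FPKM (-0.85).

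**Figure D3:**
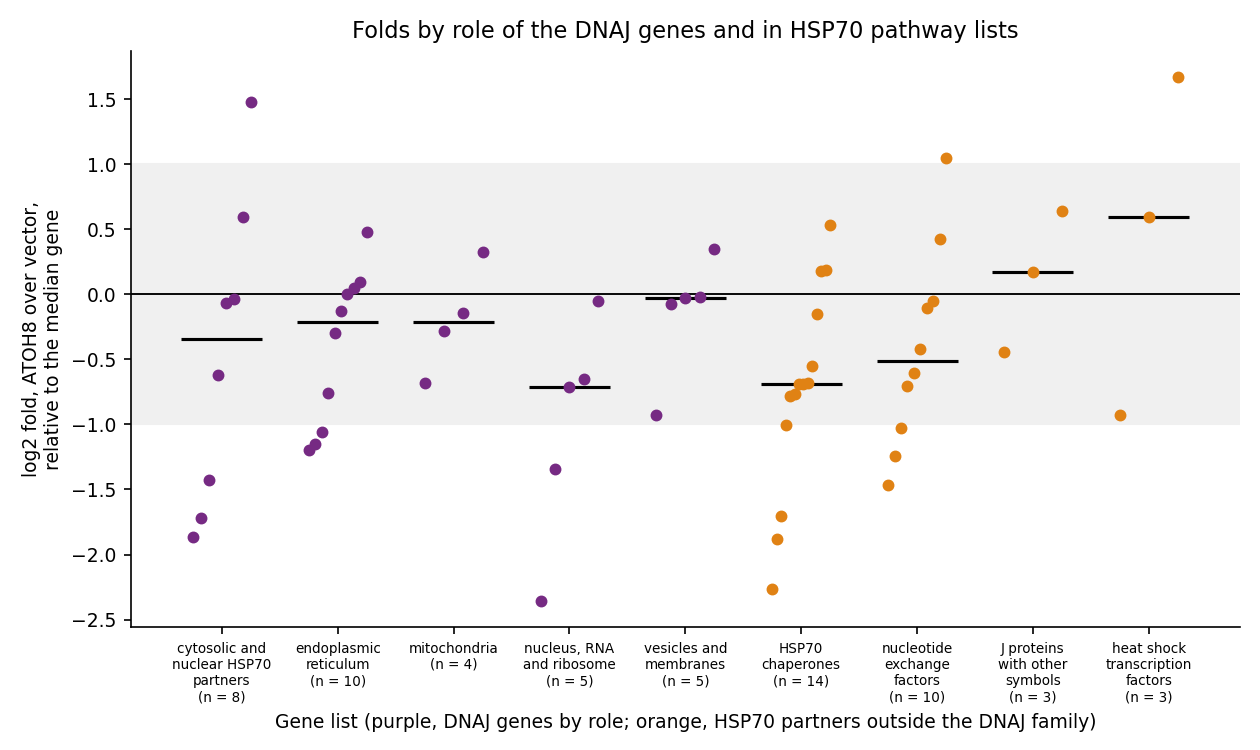
Log2 fold of single genes, ATOH8 over vector, relative to the median gene, for the DNAJ genes by role (purple) and for HSP70 pathway lists outside the DNAJ family (orange), with the list median as a bar and the band within 2-fold in grey. Of the lists of DNAJ genes, the nucleus, RNA and ribosome list had the lowest median (-0.71), close to that of the HSP70 chaperones (-0.69).

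The partners of the J proteins were read from lists of their own. Of 16 HSP70 family genes, 14 had a mean of at least 1 FPKM. Past 2-fold, 4 of them were lower (28.6%) and 0 higher, beside 9.46% and 12.8% of the genes tested. Their median log2 fold was -0.69. HSPH1, an HSP110 exchange factor, was at 9.97 FPKM in the ATOH8 library and 66.4 FPKM in the vector library (-2.26). HSPA14, of the ribosome-associated complex that also contains DNAJC2, was at 7.06 FPKM in the ATOH8 library and 37.0 FPKM in the vector library (-1.88). HSPA4, another HSP110 relative, was at 25.2 FPKM in the ATOH8 library and 108 FPKM in the vector library (-1.70).

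The ribosome-associated partners DNAJC2 and HSPA14 were therefore both among the lower genes. The fourth lower HSP70 gene, named after its value was seen, was the constitutive HSPA8, at 472 FPKM in the ATOH8 library and 1218 FPKM in the vector library (-1.01). HSPA5, which encodes BiP, the partner of DNAJB11 and DNAJC10, was at 88.8 FPKM in the ATOH8 library and 168 FPKM in the vector library (-0.55), and was also chosen after its value was seen. After the GC correction described below, 5 of the list were at least 2-fold lower (35.7%), beside 4.74% of the genes tested. HSPA8 was then at -0.95 and no longer among them, while HSPA1A (-1.13) and HSPA1B (-1.11), also named after their values were seen, had been at -0.68 and -0.69 without it. Reads of these near-identical copies could have been split between them.

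Among 10 nucleotide exchange factors, 3 lay past 2-fold on the lower side and 1 on the higher side, around a median of -0.51. Of all genes tested, 9.46% were lower and 12.8% higher by that limit. BAG2 was at 2.76 FPKM in the ATOH8 library and 12.3 FPKM in the vector library (-1.47), and the mitochondrial GRPEL2 at 2.44 and 9.43 FPKM (-1.24). SIL1, the exchange factor for BiP, was at 21.3 FPKM in the ATOH8 library and 12.8 FPKM in the vector library (1.05). After the GC correction 0 of these 10 lay past 2-fold, with BAG2 at -0.71, GRPEL2 at -0.57 and SIL1 at 0.64. HSPH1 (-1.65) and HSPA4 (-1.30), counted above with the HSP70 family, stayed at least 2-fold lower. The 3 J proteins with other symbols that were read, GAK (0.64), SEC63 (-0.45) and HSCB (0.17), lay within 2-fold. Of the heat shock transcription factors, HSF1, the main one, was at 38.0 FPKM in the ATOH8 library and 32.1 FPKM in the vector library (0.60). HSF2 was at 2.80 FPKM in the ATOH8 library and 8.27 FPKM in the vector library (-0.93), and HSF4 at 6.99 and 2.22 FPKM (1.67). With the GC correction HSF1 was at 0.04, HSF2 at -0.36 and HSF4 at 1.16.

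In the authors' deposited table of differential expression, 7 of the 36 members were marked down and 3 up, beside 14.7% and 5.15% of the genes tested. Those 10 were all among the 11 members at least 2-fold apart, and DNAJB11 was the 1 not in it. Both rest on the same FPKM, so neither is an independent check of the other. The authors' deposited table gave DNAJC7 a q-value of 9.83e-07 and DNAJC2 a q-value of 4.94e-06. For DNAJC12 and DNAJC9 the authors' deposited table gave q-values of 0.0431 and 0.0443. These q-values compare 2 libraries and not the conditions.

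Base composition moved with the folds. Across the 12309 tested genes with a transcript sequence, the fold and the GC content of the longest transcript had a Spearman correlation of 0.55, and across the 36 members it was 0.46. The points of each correlation share the same 2 libraries. The median GC content was 39.7% for the 8 lower members, 45.8% for the 25 within 2-fold, 58.4% for the 3 higher and 48.5% for all tested genes. After subtraction of the trend with GC content, 6 members were at least 2-fold lower and 3 higher, beside 4.74% and 9.86% of the genes tested.

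The correction left some members where they were and moved others. DNAJC2 (-2.03), DNAJC7 (-1.33), DNAJA1 (-1.25) and DNAJC9 (-1.21) were at least 2-fold lower with and without it. DNAJB4 (-0.97), DNAJB11 (-0.47), DNAJC10 (-0.41) and DNAJB14 (-0.19) came within 2-fold, and the GC-rich DNAJC17 (-1.04) and DNAJC11 (-1.02) moved past it. DNAJC12 stood at 2.68, DNAJC4 at 1.35 and DNAJB2 at 1.05, and all 3 stayed at least 2-fold higher. The gap between DNAJB14 and DNAJB12 on the log2 scale was -1.10 before and 0.11 after the correction, whereas that between DNAJA1 and DNAJA2 was -1.66 and -1.69. The part of GC content in these differences was not tested.

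**Figure D4:**
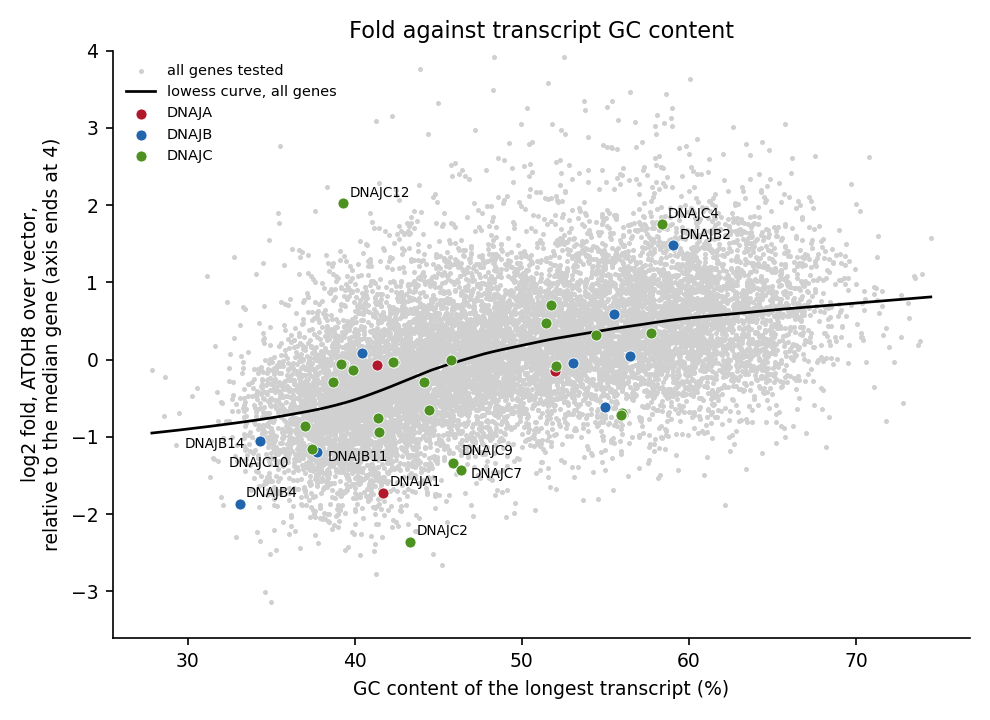
Log2 fold, ATOH8 over vector, relative to the median gene, against the GC content of the longest transcript in percent, for all tested genes in grey with their lowess curve and for the DNAJ members by class. DNAJC12 lies far above the curve at 39.3% GC, and DNAJC2 far below it at 43.3% GC, while DNAJB14 lies near it.

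Overlapping genes limit some values, because the strand setting was not stated. Of the 36 tested members, 15 overlapped another protein-coding gene in GENCODE 29. These were 5 of the 8 lower, 9 of the 25 within 2-fold and 1 of the 3 higher members. DNAJB11 overlaps AC068631.2 on the same strand, at 0.763 FPKM in the ATOH8 library and 3.78 FPKM in the vector library (-1.08). DNAJC9 overlaps MRPS16 on the same strand, at 54.1 FPKM in the ATOH8 library and 66.0 FPKM in the vector library (0.08). DNAJC2 overlaps PSMC2 on the opposite strand, which stood at 17.7 FPKM in the ATOH8 library and 54.4 FPKM in the vector library (-1.21), and PMPCB, at 31.4 and 33.0 FPKM (0.29). DNAJC7 overlaps CNP on the opposite strand, at 29.6 FPKM in the ATOH8 library and 38.5 FPKM in the vector library (-0.01). It also overlaps NKIRAS2 on the opposite strand, at 22.8 and 17.6 FPKM (0.71). DNAJB4 overlaps GIPC2 on the same strand, which was listed in neither library. DNAJC4 overlaps NUDT22 on the same strand, which stood at 26.0 FPKM in the ATOH8 library and 18.0 FPKM in the vector library (0.87). DNAJC25 overlaps the readthrough gene DNAJC25-GNG10 on the same strand, so reads could have been split between them, and that gene stood at 2.01 FPKM in the ATOH8 library and 6.14 FPKM in the vector library. DNAJA1, DNAJB14, DNAJC10, DNAJB2 and DNAJC12 overlapped no other protein-coding gene.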

How the data were processed

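Each library came as a table of FPKM made by the authors, with a symbol and a locus beside the identifier of every gene, per the file headers. Tools named in the submitters' processing notes are CASAVA, HISAT2 and Cufflinks (2.2.1), with GRCh38 as build and no role or order. The gene annotation, strand setting, filters and depth were not given in the sources used here. A further deposited table holds the authors' comparison as a log2 ratio, p-values and q-values, per the file headers; another 2 columns of FPKM in it have names that fit neither sample's labels and were left out.

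The 2 tables were joined on the identifier, and repeated symbols were summed. Folds used log2(FPKM + 1) for genes whose mean FPKM was 1 or more, relative to the median gene among those with a mean FPKM of 5 or more (Python 3.11.15, pandas 2.3.3). GC content and length came from the longest GENCODE 29 transcript (99.7% of tested genes), and folds were GC corrected by removing a lowess trend (fraction 0.3, statsmodels 0.14.6). Folds and corrections were tested on simulated data. With 1 library per group no test was run, and a rule of size (2-fold) was used.

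Named were all members at least 2-fold apart, the 3 highest of each class, members a role group turns on, and up to 3 genes per pathway list, with any others named in the text as chosen after their values were seen; some genes of these lists are not reported here. Members and lists were chosen with earlier results of these data known. The longer heat shock element, the CCAAT box and the cyclic AMP response element core were added after the data were seen. Promoters are RefSeq's (GRCh38.p14). Protein sequences were not used here.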

Additional observations from a re-analysis of the deposited data

How the results depend on the processing

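No paired analysis was possible because the design held 1 library per group. Under 11 alternatives, 3 members were at least 2-fold higher each time, and the number at least 2-fold lower ran from 6 to 14. Over all genes tested, the lower share ran from 4.25% to 19.0% and the higher share from 5.15% to 16.0%. The members tested were 36, except with no filter on low values (41) and with a mean of at least 5 FPKM (27). The lower count was 14 with the FPKM as deposited. There the medians of all members, DNAJA, DNAJB and DNAJC were -0.49, -0.50, -0.39 and -0.56, because the baseline of -0.36 was not subtracted. With TPM over nuclear genes, not centred, those medians were -0.33, -0.27, -0.16 and -0.40. With a pseudocount of 0.1 the median of all members was -0.25. The DNAJC median was -0.057 with a pseudocount of 5 and -0.10 with no filter on low values. After the GC correction the DNAJA, DNAJB and DNAJC medians were -0.33, -0.26 and -0.039. Apart from the first, the cause of these shifts was not tested. Other medians moved by at most 0.1. These alternatives gave 175 values for the members at least 2-fold apart and the 3 highest of each class by mean FPKM. Of these values, 167 kept their side of the 2-fold limit, 7 came within it and 1 went past it. Dropping the filter, raising it to 5 FPKM or taking the highest row of a repeated symbol could not change a member's own fold. Values from those settings were fixed in advance and are included in the 167. Other members were not in these counts. Among them, DNAJC11, DNAJC13, DNAJC17, DNAJC24 and DNAJC25 went past the limit as deposited, and DNAJC11 and DNAJC17 with the GC correction. DNAJA2, within the limit, turned to 0.44 with the GC correction, against -0.06. The other 174 of the 175 values kept their sign, including those fixed in advance. Members outside these counts also turned with the GC correction, among them DNAJC21, from -0.05 to 0.60, and DNAJC5, from 0.35 to -0.04. DNAJB14 (-0.47) and DNAJC10 (-0.97) came within 2-fold with a pseudocount of 5, DNAJB14 (-0.97) with the length correction, and DNAJC8 (-1.01) went past it as deposited. Centring on protein-coding genes, chosen after seeing the data, left 8 lower and 3 higher, beside 9.85% and 12.7% of the protein-coding genes tested. Without replicates or read counts, neither biological spread nor counting error could be given.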
